A study of Sus scrofa with 2 samples.

Results

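T cells with low CCL5 were selected from single-cell RNA sequencing of dorsal skin of healthy male farm pigs, in 1 library of fresh cells and 1 library of cells cryopreserved in 90% FBS + 10% DMSO. A cell was kept with at most 4500 genes, at most 30000 unique molecular identifiers (UMIs, which count each captured transcript once) and at most 10% of its UMIs on 13 mitochondrial protein genes. It was called a T cell with at least 2 UMIs of CD3E and CD3D together, chains of the T cell receptor complex. Fewer than 10 UMIs of C1QA and C1QB, under 1% of UMIs on COL1A1, COL1A2 and COL3A1 and under 0.3% on KRT5 were required, which caps macrophage, fibroblast and keratinocyte transcripts without removing them. Cells with fewer than 5 UMIs of CCL5, a chemokine of cytotoxic lymphocytes, were the low CCL5 cells. They numbered 112 of 2775 filtered cells in the fresh library and 192 of 4223 in the cryopreserved library, 304 of 6998 in all.

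Both libraries came from epidermis and dermis dissociated with a single enzyme kit, and dead cells and doublets were removed by flow sorting. A step of freezing appears in the protocol text of the fresh sample too, although its title and treatment name it as fresh. Whether the same animal gave both libraries is not stated in the sources used here. Each condition rests on 1 library, so nothing was tested and the differences hold for these libraries alone. All intervals are 95% intervals that cover counting error only. The libraries shared 6 cell barcodes, none of them from these T cells.

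T cells recognise antigen through a receptor whose signal passes through the CD3 chains and the kinases LCK and ZAP70. Pig skin holds conventional T cells, which express CD2, CD28 and a CD4 or CD8 coreceptor, and gamma-delta T cells, which are abundant in pigs and include cells without CD2. T cells of the type 17 program carry the interleukin 23 receptor and secrete IL17A and IL17F, which act on keratinocytes and recruit neutrophils.

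The low CCL5 cells were 4.04% of filtered fresh cells (exact binomial interval 3.34 to 4.84%) and 4.55% of filtered cryopreserved cells (3.94 to 5.22%), a difference of 0.511 percentage points (-0.481 to 1.46). Among all T cells of the rule they were 112 of 122 (91.8%, 85.4 to 96.0%) and 192 of 207 (92.8%, 88.3 to 95.9%). A low CCL5 cell held a median of 6622 UMIs (6147 to 7460) and 2296 genes in the fresh library, and 4813 UMIs (4617 to 5067) and 1882 genes in the cryopreserved library. The median mitochondrial share was 4.05% for fresh and 3.71% for cryopreserved members. The limits on genes, UMIs and mitochondrial share kept 63.4% of fresh and 86.9% of cryopreserved barcodes. Without the mitochondrial limit the low CCL5 cells were 3.04% of fresh and 4.11% of cryopreserved cells, which lie further apart. Summed over the cells the data comprise 885952 fresh and 1018921 cryopreserved UMIs.

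**Figure D1:**
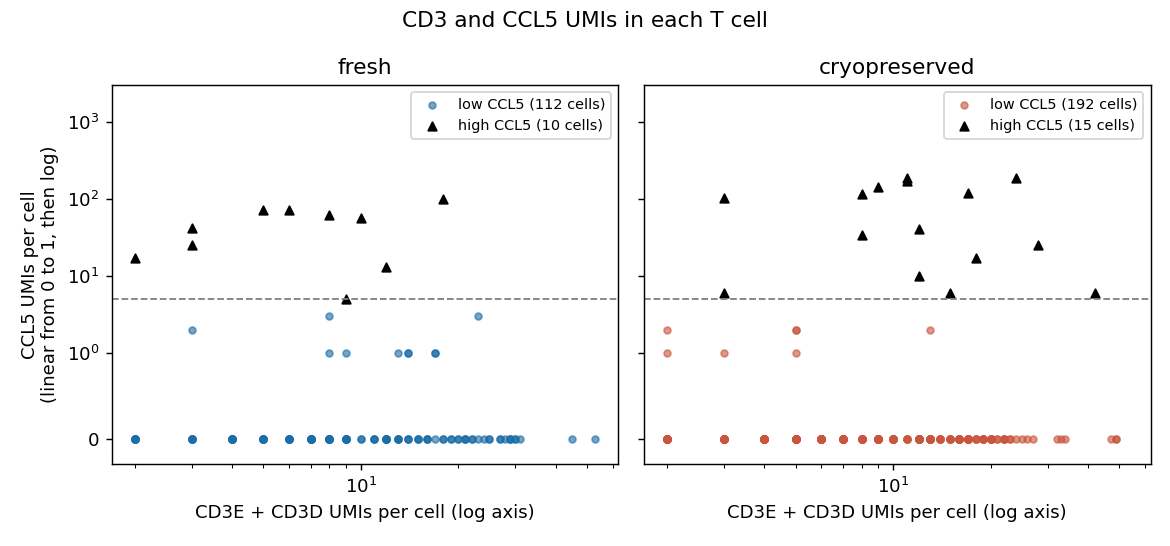
CD3E plus CD3D UMIs (log axis) against CCL5 UMIs (linear up to 1, then log) in each T cell, by library. Circles are low CCL5 cells and triangles high CCL5 cells, divided at the dashed line of 5 UMIs, and most low CCL5 cells lie at 0 CCL5 UMIs.

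The rule placed its border in a sparsely filled range. CCL5 had 0 UMIs in 102 of 112 fresh members and 185 of 192 cryopreserved members. The highest values inside were 3 UMIs (2 fresh cells) and 2 UMIs (4 cryopreserved cells), and the lowest outside were 5 UMIs (1 fresh cell) and 6 UMIs (3 cryopreserved cells). CD3 was at the minimum of 2 UMIs in 6 fresh and 14 cryopreserved cells, and 7 and 17 further cells would have entered at 1 UMI. The members held a median of 10 fresh and 9 cryopreserved CD3 UMIs. The purity limits excluded 1 fresh and 2 cryopreserved cells.

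Most of these cells carried BLK and SOX13 and lacked UMIs of CD2 and LCK, which are standard T cell markers. BLK, a Src family kinase known from B cells and gamma-delta T cells, reached 1557 CPM (UMIs per 1000000 UMIs of the summed cells; exact Poisson interval 1475 to 1641) in fresh members and 1526 CPM (1451 to 1604) in cryopreserved members. It was detected in 101 of 112 cells (90.2%) and 173 of 192 cells (90.1%), against 0.585% and 0.135% of the fibrillar collagen cells (collagen genes of the rule at 1% or more of UMIs). Those 1025 fresh and 1482 cryopreserved collagen cells had median depths of 13847 and 10248 UMIs and served as the measure of free RNA. SOX13, a transcription factor of gamma-delta T cell development, stood at 602 CPM (552 to 655) and 537 CPM (493 to 584), in 81.3% of the cells of each library.

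CD2, an adhesion receptor, had UMIs in 12 fresh cells (10.7%, 5.66 to 18.0%) and 17 cryopreserved cells (8.85%, 5.24 to 13.8%). Its summed level was 37.2 CPM (25.6 to 52.3) and 57.9 CPM (44.1 to 74.7). LCK was found in 12 fresh and 13 cryopreserved cells, and the costimulatory receptor CD28 in 10 and 11. ZAP70, the receptor chain CD247 and the adaptor SKAP1 were widespread, each in 74.5% or more of the cells of a library. ZAP70 stood at 286 CPM fresh and 329 cryopreserved, CD247 at 466 and 455, and SKAP1 at 664 and 520. THEMIS, a protein of T cell receptor signalling, was found in 17 cells of each library, and the phosphatase UBASH3A in 6 fresh and 4 cryopreserved cells. CD5 (106 and 104 CPM) and CD6 (64.3 and 47.1 CPM), surface receptors that dampen receptor signals, lay above the collagen cells, where neither exceeded 0.139 CPM. PTPRC, the CD45 phosphatase of leukocytes, was at 1501 and 1380 CPM, against 6.90 and 6.96 in collagen cells.

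Shares of cells with a UMI follow depth, so each cell was also thinned to 1000 UMIs. After thinning, BLK was detected in 65.2% of fresh and 72.4% of cryopreserved members, and in 0 of 1021 (up to 0.294% allowed by a count of 3) and 1 of 1474 collagen cells. CD2 was then found in 4.46% and 6.25% of members.

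Among the further T cell markers fixed for checking the label, CD247 and ZAP70 were found in most members, CD5 in 52 fresh and 76 cryopreserved cells, CD6 in 33 and 31 cells, and CD2 and LCK in at most 17 cells of a library. CD3G had 0 UMIs in either whole library, and LAT matched no named feature. TRDC, the constant gene of the delta chain, had 1 UMI among all fresh barcodes and 0 among the cryopreserved ones. The other receptor constant genes of the lists matched no named feature. The lineage by receptor chain was therefore not read here. FOXP3, which marks regulatory T cells, had 18 and 15 UMIs over all barcodes of each library, too few to sort single cells by it. CD4 (6 and 5 UMIs in members) and CD8A (8 and 9 UMIs) were close to absent.

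Against all other filtered cells, 21.9% of the 4789 genes with at least 50 UMIs in members were 2-fold or more higher in members of both libraries and 6.7% lower. Since the cells were chosen as T cells this is a description, with no test. All 6 measured genes of the T cell surface list (9 genes, 6 past the minimum) were higher. Their median log2 ratio was 6.21 fresh and 6.12 cryopreserved, beside 0.40 and 0.37 over all genes. The genes passed the minimum through the members, so neither the count nor the median is read. The leading genes by the smaller ratio included ZAP70 (log2 ratio 8.85 fresh and 8.91 cryopreserved), BLK (9.26 and 8.29), IL17F (10.11 and 7.96) and RHEX (8.49 and 7.90). IL17A and the costimulatory receptor TNFRSF4 ranked among them with few UMIs elsewhere, IL17A with 0 fresh and 4 cryopreserved UMIs in all other cells and TNFRSF4 with 2 and 6. IL17A had 62.2% of its fresh and 32.6% of its cryopreserved UMIs in 1 cell, TNFRSF4 26.3% and 41.9%, and IL17F 27.5% of its fresh UMIs. IL22 ranked there too although all of its UMIs, 43 fresh and 9 cryopreserved, came from 1 cell in each library. The fresh IL22 cell had 22 UMIs of CD3E and 6 of CD3D. The cryopreserved IL22 cell had 2 UMIs of CD3D and 0 of CD3E, BLK and SOX13. Of the features known by identifier only, ENSSSCG00000029596 had the most UMIs, 1167 fresh in 106 cells and 1728 cryopreserved in 181 cells. CD3E, also among the leading genes, was used by the rule.

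BLK lies on chromosome 14 at 14688489 to 14745946 and FAM167A beside it at 14627242 to 14667494 (RefSeq positions on Sscrofa11.1, the build used by the authors). FAM167A had 58 UMIs in 34 fresh members and 90 UMIs in 62 cryopreserved members, and its log2 ratio to the other cells was 4.78 and 4.88. It was named by the ranking of low over high CCL5 ratios, and its position was looked up after that.

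**Figure D2:**
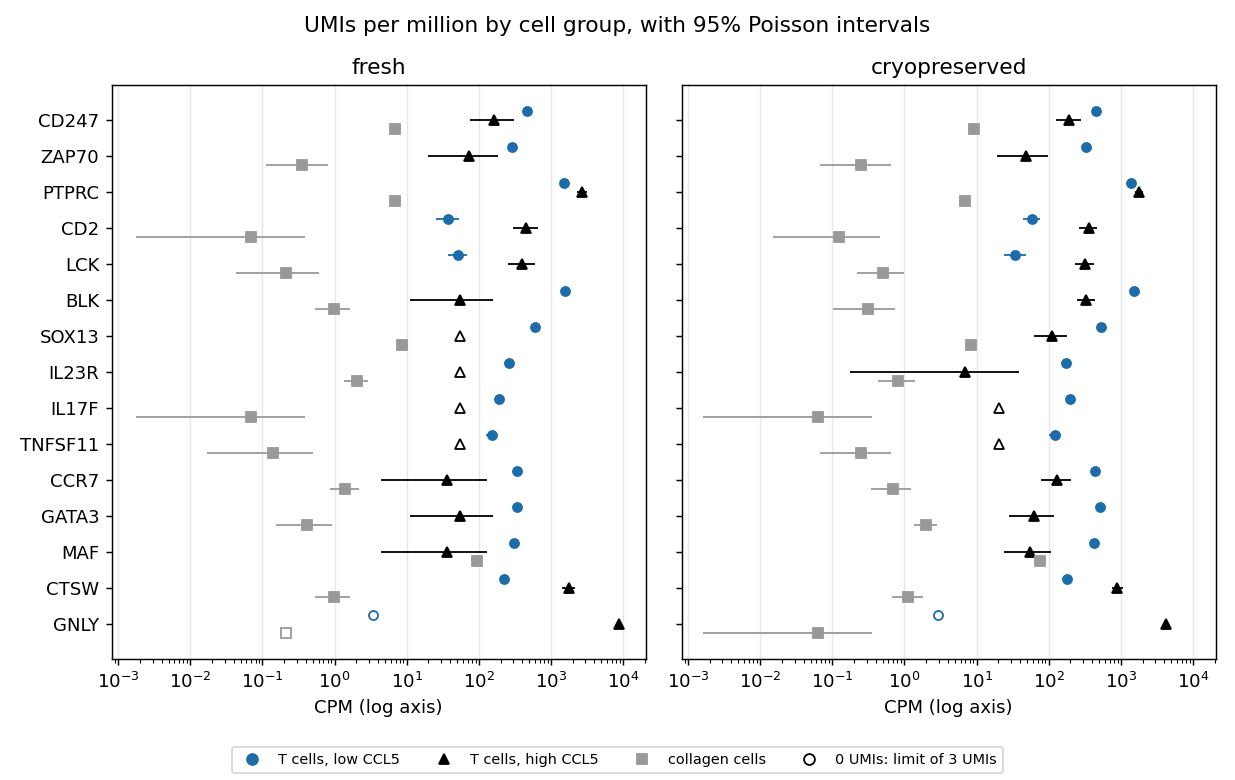
CPM (log axis) of 15 genes in low CCL5 T cells (circles), high CCL5 T cells (triangles) and collagen cells (squares), with 95% Poisson intervals and open symbols at the limit set by 3 UMIs where none was counted. BLK and SOX13 were highest in the low CCL5 cells and CD2, LCK, CTSW and GNLY in the high CCL5 cells of both libraries.

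Genes of the naive and recirculating list went both ways. Against all other cells 7 of its 8 measured genes were 2-fold or more higher in both libraries and 1 was lower. The shares over all genes were 21.9% and 6.7%. The genes passed the minimum through the members, so the count is not read. CCR7, a chemokine receptor that guides lymphocytes to lymph vessels and nodes, had 336 CPM in the fresh (299 to 377) and 435 CPM in the cryopreserved library (395 to 477), in 69 and 121 cells. TCF7 and LEF1, transcription factors of naive and memory T cells, stood at 251 and 213 CPM in the fresh and 303 and 134 CPM in the cryopreserved library. BACH2, a repressor of effector differentiation, was at 1489 CPM fresh and 1453 cryopreserved. The egress receptor S1PR1 had 2 and 5 UMIs. CCR7 was thus present with few transcripts of S1PR1, which had UMIs in at most 2 cells of a library.

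Markers of tissue residence were mixed. CD69, which retains T cells in tissue, was at 471 and 320 CPM and RGS1, a regulator of chemokine signalling, at 575 and 753 CPM. ITGAE, the integrin chain that binds epithelial cadherin, was at 38.4 and 26.5 CPM in 20 and 21 cells. CXCR6 and PRDM1 had at most 10 UMIs in either library, and CXCR6 had 4 and 5 UMIs over all barcodes. CCR10, a receptor for the skin chemokine CCL27, had 20 UMIs in 17 fresh cells and 39 UMIs in 33 cryopreserved cells, while CCR6 had 0 and 1 over all barcodes and so was not measurable.

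GATA3, a transcription factor of T cell development and type 2 responses, was at 334 CPM (297 to 374) and 514 CPM (471 to 560), and MAF at 310 and 419 CPM. The type 2 cytokines IL4 and IL13 had 0 UMIs in members of both libraries, which allows at most 3.39 CPM fresh and 2.94 CPM cryopreserved at a count of 3. Over all barcodes IL4 had 6 and 13 UMIs and IL13 had 2 and 0, too few to read their absence in members. TNFSF11, the cytokine RANKL, was found in 54 fresh cells (48.2%) at 151 CPM (127 to 179) and in 73 cryopreserved cells (38.0%) at 123 CPM (102 to 146), against 0.139 and 0.251 CPM in collagen cells. CSF2, which encodes GM-CSF, was at 58.7 and 91.3 CPM. IFNG had 0 and 1 UMI over all barcodes and so was not measurable in any cell type.

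Within the low CCL5 cells, type 17 transcripts, CD2-type transcripts and BLK with SOX13 marked overlapping groups of cells. The grouping genes were chosen after their values were seen, so the shares are descriptions. At least 2 UMIs of IL23R, IL17A, IL17F and IL22 together were found in 22 of 112 fresh cells (19.6%, 12.7 to 28.2%) and 32 of 192 cryopreserved cells (16.7%, 11.7 to 22.7%). CD2, LCK and CD28 reached 2 UMIs together in 12 fresh cells (10.7%) and 19 cryopreserved cells (9.90%). BLK and SOX13 reached 2 UMIs in 100 fresh (89.3%) and 172 cryopreserved cells (89.6%). In collagen cells the same limits were met by 2 and 0 cells for the type 17 genes, 1 and 2 cells for CD2, LCK and CD28, and 27 (2.63%) and 21 cells (1.42%) for BLK and SOX13.

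Of the type 17 cells, 20 of 22 fresh and 24 of 32 cryopreserved cells also met the BLK and SOX13 limit, beside 89.3% and 89.6% of all low CCL5 cells. Of the CD2 group, 2 of 12 fresh and 2 of 19 cryopreserved cells met it. BLK and SOX13 without either of the other sets were found in 80 fresh (71.4%) and 147 cryopreserved cells (76.6%). Only 2 cells in each library met none of the limits. Thinned to 1000 UMIs and at 1 UMI, the BLK and SOX13 share was 73.2% and 78.1%.

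IL17A and IL17F lie on chromosome 7, with RefSeq starts 52455 bases apart and on opposite strands. Their upstream sequences are shown because these cytokines mark the type 17 cells. Among cells with either transcript, 4 of 16 in the fresh and 6 of 18 in the cryopreserved library had both. Each line gives the 250 bases before the RefSeq start in the direction of the gene, chr7:46013334-46013583 (plus strand) for IL17A and chr7:46066040-46066289 (minus strand) for IL17F, both in Sscrofa11.1. Capitals mark AGGTCA or its reverse complement TGACCT, a core motif that nuclear receptors bind.

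IL17A: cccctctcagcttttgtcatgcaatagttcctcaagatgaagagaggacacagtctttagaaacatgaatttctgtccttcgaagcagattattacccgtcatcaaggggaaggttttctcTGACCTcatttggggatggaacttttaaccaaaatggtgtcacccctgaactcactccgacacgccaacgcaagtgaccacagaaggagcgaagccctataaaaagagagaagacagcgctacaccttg
IL17F: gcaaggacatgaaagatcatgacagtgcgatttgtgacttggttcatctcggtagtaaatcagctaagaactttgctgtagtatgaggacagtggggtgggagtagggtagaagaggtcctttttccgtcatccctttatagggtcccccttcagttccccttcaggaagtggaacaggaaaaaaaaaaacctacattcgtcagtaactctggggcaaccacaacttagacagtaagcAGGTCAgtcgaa

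IL17A held 1 match, 124 to 129 bases before the start, and IL17F held 1 match, 7 to 12 bases before the start. Of 19572 such windows of protein-coding genes, 12.3% held a match on either strand. A match of these letters describes the window and is no binding site.

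IL17A had 45 UMIs in 6 fresh cells and 46 UMIs in 8 cryopreserved cells. IL17F had 171 UMIs in 14 fresh cells (193 CPM, 165 to 224) and 202 UMIs in 16 cryopreserved cells (198 CPM, 172 to 228). IL23R, the receptor that maintains type 17 cells, was found in 24 fresh and 36 cryopreserved cells. Of the 16 fresh cells with IL17A or IL17F, 15 had IL23R, and of the 18 such cryopreserved cells, 17 had it. In the high CCL5 cells IL17A and IL17F had 0 UMIs in both libraries.

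The type 17 cells differed from the cells with BLK or SOX13 alone in genes that did not define either group. Their median depths were close within a library, 5858 against 6813 UMIs in the fresh and 4696 against 4919 in the cryopreserved library. Cells with at least 2 UMIs of CD2, LCK and CD28 together were left out of the BLK cells only. The type 17 cells kept 4 fresh and 8 cryopreserved cells of that kind, and their part in the differences was not tested. IL2RA, the high affinity chain of the interleukin 2 receptor, was at 2534 CPM (2301 to 2783) in the fresh type 17 cells against 652 CPM (591 to 718) in the BLK cells, and at 1868 against 456 in the cryopreserved library. IL7R, the receptor for a T cell survival cytokine, was at 1017 against 264 CPM fresh and 812 against 251 cryopreserved. The intervals did not overlap in either library for these genes, but they cover counting error and not the spread between cells.

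KLRB1, which encodes CD161, had 98 UMIs in 9 fresh and 100 UMIs in 14 cryopreserved type 17 cells, and 0 UMIs in the 80 and 147 BLK cells. THEMIS behaved likewise with 60 and 42 UMIs in the type 17 cells and 0 in the BLK cells. IL1R1, the interleukin 1 receptor, was at 691 CPM fresh and 283 CPM (206 to 381) cryopreserved in the type 17 cells, against 12.7 and 6.24 CPM in the BLK cells. Collagen cells, which express IL1R1 themselves, had 374 and 366 CPM, above the BLK cells of both libraries.

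TNF was at 325 CPM fresh and 477 cryopreserved in type 17 cells against 30.2 and 33.7 in BLK cells. ICOS, a costimulatory receptor, was at 110 and 180 CPM against 3.18 and 1.25. ITGAE was at 169 and 122 CPM against 6.36 and 8.74, so most of its UMIs came from the type 17 cells. TOX, a transcription factor of T cell differentiation, was at 2034 and 1720 CPM against 414 and 345, and IKZF2, which encodes HELIOS, at 1796 and 1714 CPM against 375 and 353.

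Other transcripts were higher in the cells with BLK or SOX13 alone. CCR7 was at 422 CPM (372 to 475) fresh and 507 CPM (459 to 559) cryopreserved, against 157 and 219 CPM in type 17 cells. TNFSF11 was at 194 and 151 CPM against 46.5 and 25.8. HPGDS, a prostaglandin D2 synthase, had 50 UMIs in 11 fresh and 73 UMIs in 30 cryopreserved BLK cells, and 0 in the type 17 cells of both libraries. FOXP1, a transcription factor of quiescence, was at 969 and 767 CPM against 349 and 303. CCR7, TNFSF11, HPGDS and FOXP1 were higher in BLK cells in both libraries.

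The cells with CD2, LCK or CD28 and fewer than 2 type 17 UMIs were few, 8 fresh and 11 cryopreserved, and held 54424 and 58310 UMIs. SOX13 had 0 UMIs in them and BLK 0 fresh and 4 cryopreserved, the latter in 2 cells. CD40LG, the helper T cell ligand that activates B cells and dendritic cells, had 12 and 6 UMIs there against 1 and 0 in the BLK cells. The type 17 cells held 12 CD40LG UMIs in each library, in 6 fresh and 8 cryopreserved cells. All 6 fresh CD4 UMIs of the low CCL5 cells and 4 of the 5 cryopreserved ones were in this group.

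**Figure D3:**
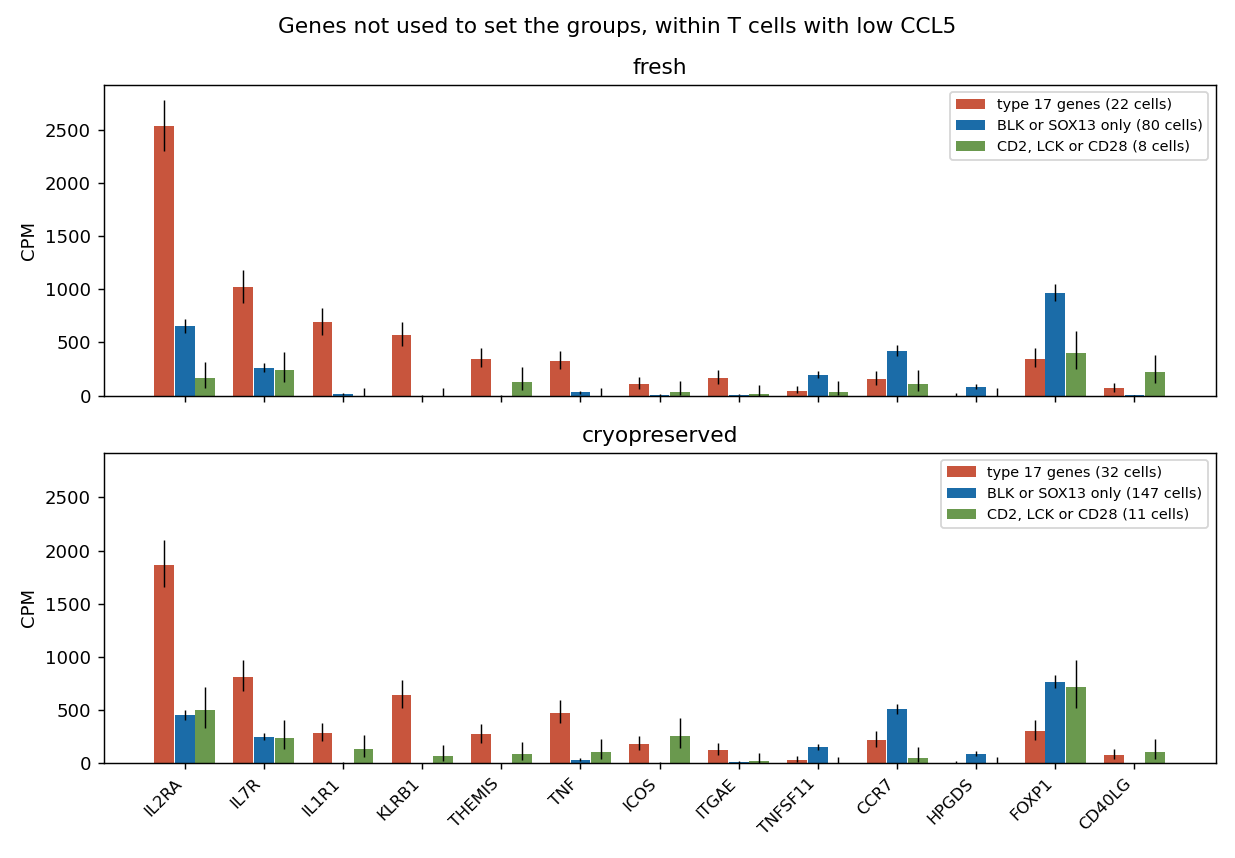
CPM of 13 genes in the low CCL5 T cells with type 17 genes (red), with BLK or SOX13 alone (blue) and with CD2, LCK or CD28 but fewer than 2 type 17 UMIs (green), by library, with 95% Poisson intervals. IL2RA, IL7R, IL1R1, KLRB1, THEMIS and TNF were highest in the type 17 cells of both libraries, and TNFSF11, CCR7 and HPGDS in the BLK or SOX13 cells.

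The nearest cells for comparison were the T cells with high CCL5, 10 fresh and 15 cryopreserved cells with 55278 and 145594 UMIs. Because CCL5 split the groups and the groups are small, the ratios describe them and were not tested. Cytotoxic transcripts were at lower levels in the low CCL5 cells. The cytotoxic list summed to 589 and 492 CPM in low CCL5 cells, with a UMI in 94 of 112 and 149 of 192 cells, and to 17113 and 9444 CPM in high CCL5 cells. In the latter 5 cells held 83.6% and 72.1% of these UMIs. GNLY, the pore-forming granulysin, had 478 fresh and 620 cryopreserved UMIs in the high CCL5 cells and 0 in the low CCL5 cells, at least 1941-fold and 1204-fold lower in the latter at a count of 3 UMIs. It was found in 6 of 10 and 8 of 15 high CCL5 cells, with 44.8% and 36.5% of its UMIs in 1 cell. The 11 genes of the list with at least 50 UMIs over all T cells were 2-fold or more lower in low CCL5 cells of both libraries, where 3.03% of 5122 genes were. Of these, 4 reached 50 UMIs in the low CCL5 cells alone. The others passed the minimum only with the UMIs of the high CCL5 cells, which largely fixed their direction, so nothing is read from the count.

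PRF1, which encodes perforin, had 23 fresh and 14 cryopreserved UMIs in low CCL5 cells and 21 and 46 UMIs in the far fewer high CCL5 cells (380 and 316 CPM). GZMH, a granzyme, had 1 and 12 UMIs against 47 and 75. NKG7, a granule protein, was at 92.6 and 91.3 CPM against 488 and 666, and CTSW, a cathepsin of lymphocytes, at 225 and 180 CPM against 1755 and 893. KLRK1, the activating receptor NKG2D, had 33 UMIs in 3 fresh cells (57.6% of them in 1 cell) and 0 in the cryopreserved low CCL5 cells, against 90 and 117 UMIs. GNLY, PRF1, GZMH and KLRK1 passed the UMI minimum only with the high CCL5 cells, so their values are a description and their shared direction is not read. CTSW and NKG7 were still found in many low CCL5 cells, 71 and 46 of the fresh cells. CD2 and LCK were lower too, with CD2 at 452 and 357 CPM and LCK at 398 and 316 CPM in high CCL5 cells. IL12RB2, the receptor chain for interleukin 12, had 29 and 22 UMIs in the low CCL5 cells (27.6% of the fresh UMIs in 1 cell) against 109 and 78.

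In the other direction 541 of the 5122 genes (10.6%) were 2-fold or more higher in low CCL5 cells of both libraries. Scaling by TMM factors, which edgeR computes from the summed counts, placed the median log2 ratio of all genes at 0.37 fresh and 0.25 cryopreserved. With total UMIs the medians were -0.03 and -0.02, and 325 genes were higher and 257 lower. The counting interval lay past 1 in both libraries for 313 of the 541 higher and 109 of the 155 lower genes.

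The type 17 genes passed the UMI minimum through the low CCL5 cells, so no count over them is read. IL17A, IL17F and IL22 had 0 UMIs in the high CCL5 cells, and fitted ratios then depend on the prior count, so bounds are given. The bounds of IL22 (1.18 fresh and 0.515 cryopreserved) and of IL17A in the fresh library (1.23) did not reach 2-fold, while that of IL17A in the cryopreserved library was 2.63. IL17F was at least 4.68-fold and 11.6-fold higher, and IL23R at least 6.24-fold in the fresh library with 1 UMI in the cryopreserved high CCL5 cells. RORA, a nuclear receptor on the same list, went the other way, at 737 and 568 CPM in low and 2207 and 1037 CPM in high CCL5 cells.

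TNFSF11 was at least 3.67-fold and 7.15-fold higher and IL1R1 at least 3.48-fold and 3.43-fold higher. BLK was at 54.3 CPM fresh and 330 CPM cryopreserved in the high CCL5 cells, and SOX13 at 0 and 110 CPM. The BLK UMIs there were 3 in 2 fresh cells and 48 in 3 cryopreserved cells, with 72.9% of the 48 in 1 cell. Of the naive and recirculating list CCR7, TCF7, LEF1, IL7R and FOXP1 were 2-fold or more higher (4 of them by total UMIs) and KLF2 and SATB1 lower, beside 10.6% and 3.03% of all genes. All 8 measured genes of that list passed the minimum with the UMIs of the low CCL5 cells alone, so the count is not read. The direction of CCR7 depended on the CD3 limit, since at a minimum of 1 CD3 UMI its log2 ratio was -1.30 for fresh and 2.10 for cryopreserved cells. ZAP70 and CD247 were higher, at 72.4 and 48.1 CPM for ZAP70 in the high CCL5 cells. GATA3 (54.3 and 61.8 CPM) and MAF (36.2 and 55.0 CPM) were low there too. The helix-loop-helix inhibitor ID3 had 67 and 123 UMIs in low CCL5 cells against 0 and 1. Among the other named genes, MARCHF3 had 69.5% of its fresh UMIs in 1 cell. KIAA1958, IFFO2, TTC39B, GALNT3, ENSSSCG00000039633 and ENSSSCG00000031085 were spread over 20 or more cells in each library.

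Of 18 measured early response and heat shock genes, 9 were 2-fold or more higher in low CCL5 cells of both libraries, beside 10.6% of all genes, and none was lower, beside 3.03%. By total UMIs 6 were higher, beside 325 of the 5122 genes. The list had a median log2 ratio of 1.35 fresh and 1.13 cryopreserved, beside 0.37 and 0.25 over all genes. These genes too passed the minimum in the low CCL5 cells alone, so the count and the median are a description. FOS, an early response transcription factor, had 576 and 918 UMIs in the low CCL5 cells against 4 and 60, and ZFP36, which speeds the decay of cytokine transcripts, 820 and 1078 against 11 and 36. These genes also respond to tissue dissociation, whose part in the values was not tested. None of 6 measured cell division genes was 2-fold apart in the same direction in both libraries.

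**Figure D4:**
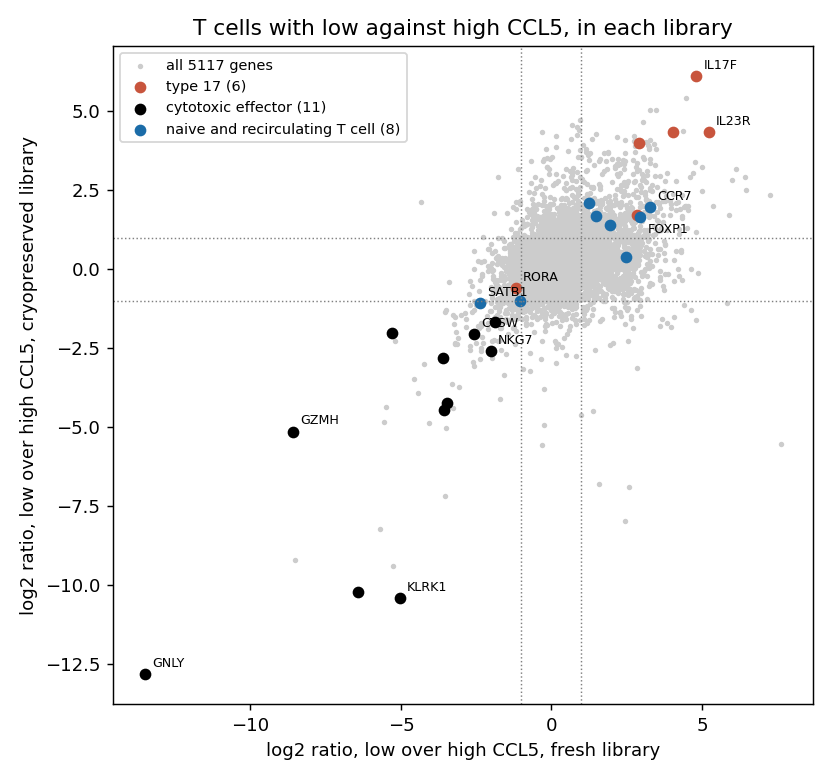
Log2 ratio of low over high CCL5 T cells in the fresh (x axis) and cryopreserved library (y axis), for genes with a ratio in both, with type 17 (red), cytotoxic (black) and naive or recirculating genes (blue) marked and dotted lines at 2-fold. The 11 cytotoxic genes lie at the lower left, and IL17F and IL23R lie at the upper right. The position of a gene with 0 UMIs in a group depends on the prior of 0.5 UMIs.

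Between the cryopreserved and fresh low CCL5 cells most genes differed little. The median size of the log2 ratio over 4789 genes was 0.28, and 201 genes (4.2%) were 2-fold or more apart, 110 higher (2.3%) and 91 lower (1.9%) in the cryopreserved library. In 67 of the 201, more than 25% of the UMIs of the higher library came from 1 cell.

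BLK, SOX13, ZAP70 and IL17F stayed within 2-fold. BLK had a cryopreserved over fresh ratio of 1.03 (0.961 to 1.11), SOX13 0.941 (0.833 to 1.06), ZAP70 1.21 (1.03 to 1.43) and IL17F 1.08 (0.879 to 1.34). No gene of the receptor signalling, T cell surface, naive or tissue-resident lists passed 2-fold, of 7, 6, 8 and 4 measured genes. With 4.2% of all genes past 2-fold, none among so few genes is near the share over all genes. Ratios whose interval excluded 1 included GATA3 at 1.62 (1.40 to 1.88), MAF at 1.42 (1.22 to 1.66), CCR7 at 1.36 (1.17 to 1.58) and IL2RA at 0.735 (0.664 to 0.813).

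The list genes past 2-fold were TNFRSF4, the chemokine CCL4 (29.0% of its cryopreserved UMIs in 1 cell), EGR1, JUNB and ITGA6 (40.8% in 1 cell), which were higher in the cryopreserved cells, and IL22, IL1R1 and NCR1, which were lower. EGR1 and JUNB, early response transcription factors, had 26 and 13 fresh and 84 and 40 cryopreserved UMIs. EGR1 had 65.5% of its cryopreserved UMIs in 1 cell, and JUNB was spread over 37 cells. The other 16 of the 18 measured early response and heat shock genes stayed within 2-fold, where 4.2% of all genes were past it, and the list had a median log2 ratio of 0.22 against 0.005 over all genes. FOS had a ratio of 1.46 (1.32 to 1.62) and HSPH1, a heat shock protein, of 0.538 (0.449 to 0.643). RBM3, a cold-induced RNA binding protein, had a ratio of 1.45 (1.26 to 1.68). Its log2 ratio to all other filtered cells was 0.81 fresh and 0.72 cryopreserved. The level of RBM3 in those other cells was thus higher in the cryopreserved library too. NCR1, a receptor of natural killer cells, had 57 fresh UMIs, 47.4% of them in 1 cell, and 30 cryopreserved UMIs. That fresh cell had 7 UMIs of CD3D, 8 of KLRK1 and 0 of CD3E, BLK and SOX13, so its T cell label rests on CD3D alone.

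Of the 20 genes furthest apart, 3 were spread over many cells. DCLK1 had 35 UMIs in 18 fresh and 159 UMIs in 78 cryopreserved cells. MRPS2, a mitochondrial ribosomal protein, had 8 UMIs in 6 fresh and 51 UMIs in 37 cryopreserved cells. PRMT2, an arginine methyltransferase, had 77 UMIs in 51 fresh and 8 UMIs in 8 cryopreserved cells. PRMT2 was lower in all other filtered cells of the cryopreserved library as well, at 11.5 against 82.5 CPM, while DCLK1 was there at 236 against 255 CPM and MRPS2 at 34.1 against 22.6 CPM. The other 17 had over 25% of the UMIs of the higher library in 1 cell.

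Single cells with transcripts of other cell types lay behind several of these 17. In the fresh library 1 cell of 23275 UMIs held 292 of 300 UMIs of SLA-DRA, 287 UMIs of SLA-DQB1 and 132 of SLA-DRB1, class II antigen presentation genes, 1128 of 1197 UMIs of CST3 and 135 of 142 UMIs of SULF1. It had 1 UMI each of CD3E and CD3D, 0 of BLK and SOX13, 30 of CD83 and 9 of FLT3, a dendritic cell receptor, and goes against the T cell label. Another fresh cell held 126 UMIs of ENSSSCG00000006286 and 87 of ADAMTS9 with 6 UMIs of BLK.

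In the cryopreserved library 1 cell held 59 of 67 UMIs of the keratinocyte chemokine CCL27, 196 of 264 UMIs of the metallothionein MT1X and 47 of 57 UMIs of S100A2 together with 23 UMIs of KRT5, 16 of BLK and 11 of IL17F. A further cell held 99 UMIs of APOE and 140 of ANGPTL4 with 39 of COL1A1 and 10 of BLK. Without the cell that holds most UMIs of each gene, 126 genes were higher and 66 lower, and CST3 had a log2 ratio of 0.19 in place of -3.62. No doublet caller was applied, and the part of mixed droplets in these values was not tested.

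Markers of other cell types were measured in the low CCL5 cells list by list. The 7 fibroblast genes summed to 315 CPM fresh and 349 CPM cryopreserved, against 132738 and 137893 in collagen cells, with COL3A1 and COL1A1 the most abundant. The lists hold genes that the rule used (COL1A1, COL1A2, COL3A1, KRT5, C1QA and C1QB), so these sums were partly fixed by the choice of cells. The 5 keratinocyte genes summed to 76.8 and 157 CPM, the latter led by ITGA6. Of 9 macrophage genes 2 had UMIs in fresh cells, 5 UMIs in all, and 6 in cryopreserved cells, 9 UMIs in all. The macrophage markers CD163 and CD209 were at 0 in members of both libraries, and LYZ had 0 UMIs over all barcodes, so it was not measured in any cell. Mast cell genes summed to 124 and 91.3 CPM, led by KIT and FCER1A, against 8.92 and 14.4 in collagen cells and 179 and 152 in all other filtered cells. In the fresh members 65.5% and in the cryopreserved members 52.7% of these UMIs came from 5 cells. Dendritic cell genes summed to 169 and 110 CPM, most of it CD83, against 91.4 and 111 in collagen cells. B cell genes, mostly CD79A, summed to 45.2 and 59.9 CPM against 30.7 and 31.4 in all other cells, and of the natural killer cell genes NCR1 had nearly all UMIs. Endothelial genes were at 49.7 and 47.1 CPM and muscle and pericyte genes at 46.3 and 9.81 CPM, both under all other cells. In the fresh members 5 cells held 72.7% of the endothelial and 92.7% of the muscle and pericyte UMIs. In the cryopreserved members 5 cells held 50% and 60%. HBB, from red cells, was at 152 and 226 CPM in 60.7% and 64.1% of members beside 66.6% and 63.1% of collagen cells. The part of these transcripts in the differences above was not tested.

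**Figure D5:**
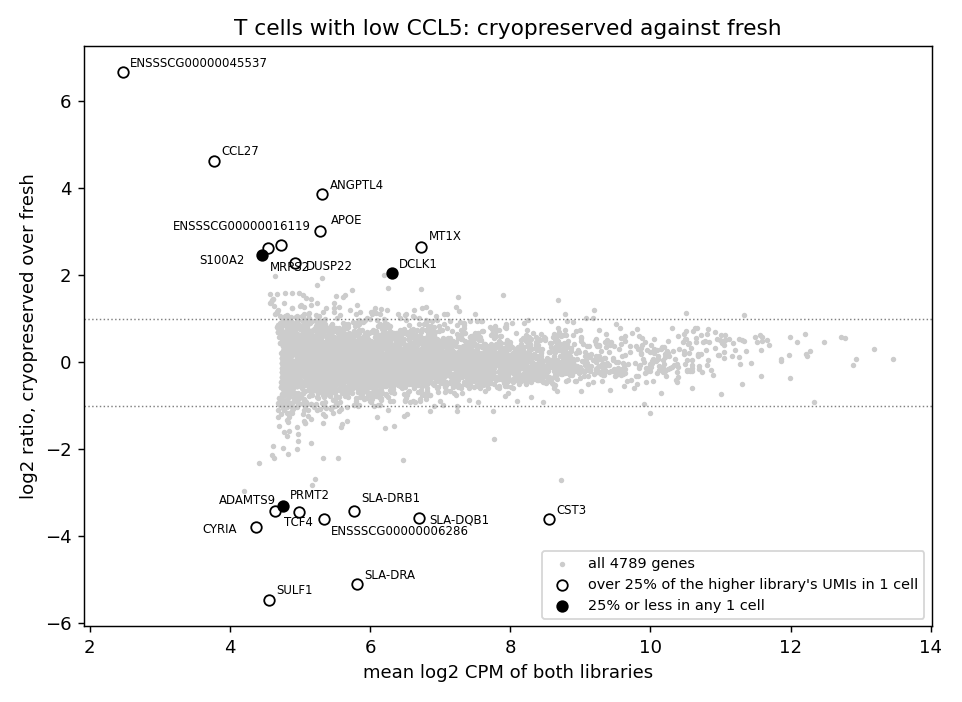
Mean log2 CPM against the log2 ratio of cryopreserved over fresh low CCL5 T cells for 4789 genes (grey), with the 10 highest and 10 lowest named and dotted lines at 2-fold. Open circles mark genes with over 25% of the higher library's UMIs in 1 cell, and the filled circles are DCLK1, MRPS2 and PRMT2.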

How the data were processed

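Single-cell suspensions of pig dorsal skin were profiled with a 10x Genomics 3′ kit, as 1 fresh and 1 cryopreserved library. The deposited values are UMI counts per gene and barcode, which the authors made with Cell Ranger 4.0.0 and STAR 2.5.1b on Sscrofa11.1, per the submitters' processing notes. No replicate was pooled and 0 columns were left unused. Of 31908 features, 16719 carry a name in the deposited files, 772 were named from a gene name table and 14417 are known by identifier only. The members and gene lists were chosen with earlier results of these data known. The 28 lists held 239 genes, of which 213 were found.

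Cells were filtered and selected by the limits given in the opening. Doublets had been gated out by scatter before sequencing and no doublet caller was run. UMI counts were summed over the cells of a library. Ratios between fresh and cryopreserved and between low and high CCL5 cells were scaled by TMM factors (edgeR 4.0.16, R 4.3.3), and ratios to all other cells by total UMIs, with a prior of 0.5 UMIs. A gene needed 50 UMIs, and 2-fold was the limit for a count, in both libraries where groups within a library were compared. No ratio was read where both sides had 3 UMIs or fewer, although such a ratio was formed for IL22 without its leading cell. A fold against 0 UMIs was computed against 3 UMIs over the group. Intervals are exact Poisson, exact binomial or, for ratios, exact conditional intervals at 95% (scipy 1.17.1, Python 3.11.15). The ratio step was tested on simulated data.

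Any measured gene of the lists could be named. Beyond them, the 15 genes at either end of the low over high ratios, by the smaller of the libraries' log2 ratios, the 15 highest members over other cells and the 10 at either end of cryopreserved over fresh were named. Alternatives were other limits for CD3, CCL5, mitochondrial share, UMIs per gene and prior, other scalings (DESeq2 1.42.0 size factors, total UMIs), and leaving out the leading cell of each gene. Promoter windows and gene positions are from RefSeq for Sscrofa11.1. Some genes of the lists and rankings count in their totals and are not reported here by name. The type 17 grouping of cells uses only the genes named for it.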

Additional observations from a re-analysis of the deposited data

Results flagged for a closer look

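For 3 genes of the lists the low over high CCL5 ratio was 2-fold or more in opposite directions in the fresh and cryopreserved libraries, and the difference between libraries was not tested. TOP2A, a topoisomerase of dividing cells, had a log2 ratio of 1.18 fresh and -1.15 cryopreserved, from 96 and 56 UMIs in low and 3 and 21 UMIs in high CCL5 cells. ITGA6, an integrin chain, had -1.16 and 1.91, from 24 and 76 UMIs in low and 4 and 3 in high CCL5 cells. CD83, a maturation marker of dendritic cells that lymphocytes also express, had 4.40 and -1.13, from 128 and 107 UMIs in low and 0 and 40 in high CCL5 cells. The fresh value is against 0 UMIs and depends on the prior, and its bound at a count of 3 UMIs was a log2 ratio of 1.81. The fresh CD83 UMIs include 30 in the cell that also holds most SLA-DRA UMIs. The cryopreserved high CCL5 cells held 410 UMIs of SLA-DRA (54.15% in 1 cell) and 848 of CST3 (72.3% in 1 cell). The fresh high CCL5 cells held 4 and 0. The part of such cells in the low over high ratios was not tested.

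Outside the filtered cells, 1604 fresh and 637 cryopreserved barcodes exceeded a limit on genes, UMIs or mitochondrial share. Of these, 6 fresh and 0 cryopreserved barcodes met the conditions on CD3, CCL5 and purity. The 6 had a median of 13243 UMIs, 3 of them exceeded the maximum of genes or UMIs, 3 had at least 2 UMIs of BLK and SOX13, and 2 had at least 2 UMIs of TOP2A and CDK1.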

How the results depend on the processing

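No paired analysis was possible because each condition has 1 library and the labels carry no replicate numbers. Without the mitochondrial limit the share of low CCL5 T cells was 3.04% fresh and 4.11% cryopreserved. The difference between libraries was then larger than with the limit, and no interval was computed for it. Cryopreserved over fresh, 306 genes were higher and 290 lower at a minimum of 20 UMIs, 24 and 12 at 200 UMIs, and 914 and 974 with no minimum. Low over high CCL5, 325 genes were higher and 257 lower by total UMIs, and 272 and 35 at a minimum of 200 UMIs. Without the leading cell of each gene, which leaves 1 high CCL5 cell out of 10 or 15, they numbered 1263 and 85. The higher genes numbered 262 with a prior of 2 UMIs, and the lower genes 326 at a minimum of 20 UMIs and 405 with none. Thinning, an alternative chosen after seeing the data, gave 73.2% fresh and 78.1% cryopreserved cells with BLK or SOX13. Without its leading cell IL22 (low over high) had 0 UMIs on both sides. The log2 ratio of -2.54 formed there comes from the prior and the totals and is no reversal. For CST3, cryopreserved over fresh, the log2 ratio turned to 0.44 at a CD3 minimum of 4 UMIs and to 0.19 without its leading cell. For ENSSSCG00000006286 it turned to 2.77 at that CD3 minimum. These limits remove the single cells that hold most UMIs of both genes. In all, 88 of the main values and counts stayed within their range and 18 moved, and among single genes 1187 values stayed, 106 moved and 4 turned. The 4 include the IL22 value formed from 0 UMIs. Directions shared by both libraries were also lost for MARCHF3, FAM167A, JUNB and PECAM1 at a CCL5 limit of 2 UMIs, for CCR7 and CD44 at a CD3 minimum of 1 UMI, for IL22 and JUNB with a prior of 2 UMIs, for IL22 and NCR1 at a CD3 minimum of 4 UMIs, and for ICOS outside the type 17 cells, also chosen after seeing the data. The number of cells limits rare transcripts, and 0 UMIs in a group gives an upper limit and not absence.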
